A study of Mus musculus with 10 samples.

Results

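The 10 genes described here encode the Nodal signal and the proteins that make, receive and relay it: Nodal itself, the co-receptors Tdgf1 and Cfc1, the convertases Furin and Pcsk6, the receptors Acvr1b, Acvr2a and Acvr2b, and the effectors Smad2 and Foxh1. They were taken by symbol, out of 18193 genes named by the 2 array types used, and the list was drawn up with earlier results of these data known. Every probe set annotated to exactly 1 of these symbols was taken, which gave 15 of 22626 probe sets on the Affymetrix array MOE430A and 3 of 22511 on MOE430B. A probe set that names Acvr2a together with a second gene was left out. RNA came from mouse embryos at embryonic day 5.5, all from B6SJLF1×CerlP-GFP matings, in which a fluorescent protein marks the anterior visceral endoderm, and none had been treated. The anterior distal fragment (Ad) was cut to hold the marked endoderm with the epiblast beneath it, and the posterior proximal fragment (Pp) held proximal visceral endoderm with epiblast from the opposite side, up to the border with the extraembryonic tissue. Both fragments therefore mix the endoderm and epiblast layers, and the third kind of sample is the whole embryo. For each array type there were 2 arrays of Ad, 2 of Pp and 1 of the whole embryo, with Ad and Pp replicates 1 and 2 on MOE430A and 3 and 4 on MOE430B. Neither the number of embryos behind a sample nor whether replicates came from separate embryos is given, so p-values here reflect the spread among these samples alone, which may be technical.

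Nodal is a secreted ligand of the TGF-beta family that is made as a precursor and cut by proprotein convertases. The mature ligand binds a complex of a type I receptor, a type II receptor and an EGF-CFC co-receptor, and the activated receptor phosphorylates Smad2, which enters the nucleus and is guided to target genes by the forkhead protein Foxh1. In the early egg cylinder Nodal is made by the epiblast and raises its own transcription, while the anterior visceral endoderm secretes the antagonists Lefty1 and Cer1. The convertases Furin and Pcsk6 are known products of the extraembryonic ectoderm at this stage.

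Signals are deposited array intensities in arbitrary units. Array medians were 590.5 to 645 on MOE430A and 56.7 to 61.0 on MOE430B. Fragments minus whole embryo is the average of the Ad and Pp means less the whole-embryo value. Differences are fitted values of log2(signal + 248) on MOE430A and log2(signal + 10.5) on MOE430B, given ± the standard error with a 95% confidence interval, and the added constant draws folds towards 1. Probe sets were tested when their mean lay above a filter signal of 464 or 37.2. All 15 member probe sets passed on MOE430A and 1 of 3 on MOE430B. When a fragment array is left out, its group is 1 array and the spread comes from the other fragment alone. Over all probe sets of MOE430A the calls between Ad and Pp, 23 with every array, then numbered 805 and 503 without Pp replicates 1 and 2 but 1 and 3 without Ad replicates 1 and 2. A pass or loss under such a fit therefore says little about a single gene. Genes known for the anterior visceral endoderm matched the dissection as a sum. The 9 measured of 10 summed to 20042 and 24648 in the Ad arrays, 7642 and 8306 in the Pp arrays and 9899 in the whole embryo. All 9 were positive in Ad minus Pp by their brightest probe sets, and 4 of them passed. Sfrp5 differed by only 0.016 (adjusted p = 0.957), with 892 and 706 in Ad, and 740 and 732 in Pp. Pp replicate 2 stood apart. The 9 extraembryonic ectoderm markers summed to 13778 there, against 8368 in Pp replicate 1, 8268 and 8643 in the Ad arrays and 13892 in the whole embryo. This rise was uneven: Elf5 and Bmp4 read 2432 and 2359 there, against 601 and 573 in Pp replicate 1, while Tfap2c was slightly lower (1241 against 1295). Decidua markers were unevenly higher in the whole embryo: the 4 measured of 7 summed to 10656 there, against 2130 to 2713 over the fragment arrays. Prl8a2 and Bmp2 carried that sum (6063 and 2677 in the whole embryo). By their brightest probe sets Dcn (780 against 539 to 624, adjusted p = 0.167) and Des (1136 against 1101 to 1274) did not pass. A fainter Des probe set did pass against the whole embryo. No measured marker of any list was at 0, but only markers that passed the filter were counted as measured, so this cannot show whether a tissue was absent. In RNA from mixed tissue, fewer cells of a type and less RNA per cell cannot be told apart.

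**Figure D1:**
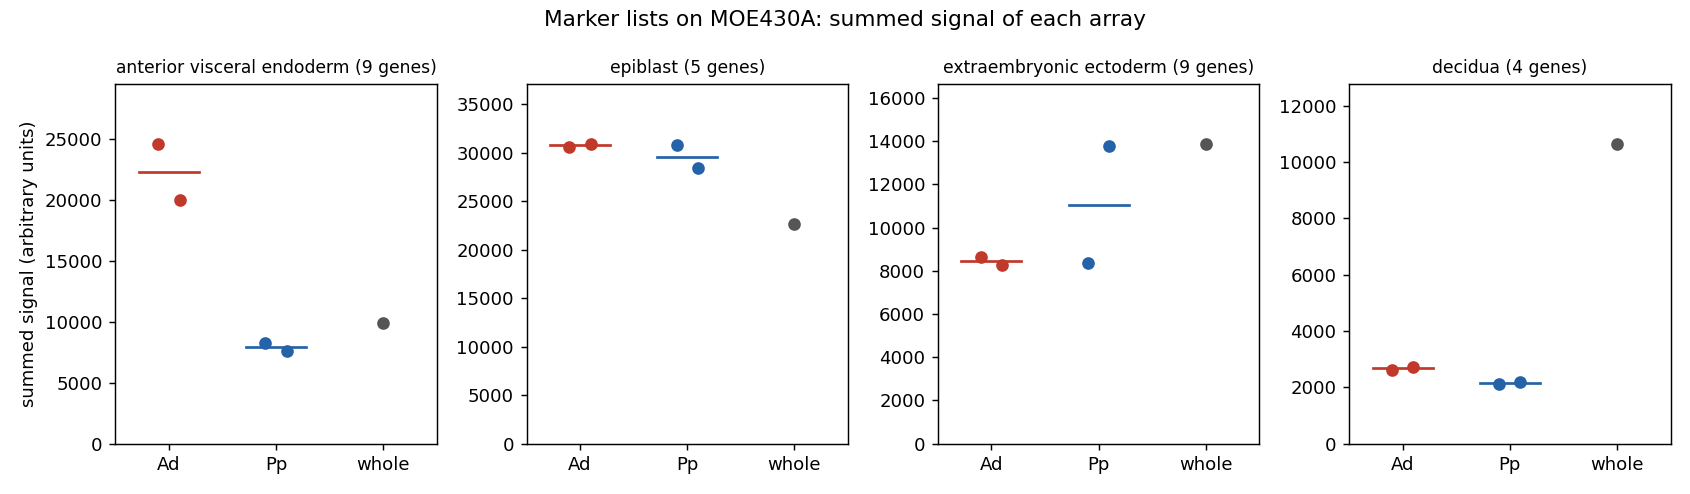
Summed deposited signal of 4 marker lists on MOE430A (vertical axis, arbitrary units, linear from 0), with a point for each array and a line at the mean of the 2 Ad and the 2 Pp arrays. Anterior markers were highest in Ad, extraembryonic ectoderm markers were high in Pp replicate 2 (13778) and the whole embryo (13892), and decidua markers were high in the whole embryo (10656).

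Between Ad and Pp none of the 15 member probe sets on MOE430A passed an adjusted p of 0.05 in limma, where 0.169% of all tested probe sets did. An unadjusted p under 0.05 was reached by 4 of the 15, against 11.7% of all tested. The member median was -0.00 on the log2 scale and the median of all tested probe sets -0.03. Both Ad arrays lay above both Pp arrays in 4 member probe sets and below them in 2, where the shares over all tested probe sets were 32.3% and 12.2%. The only tested member probe set on MOE430B did not pass (adjusted p = 0.541), and 0.111% of all probe sets there did. Against the whole embryo, 4 of the 15 were higher in the fragments, where 4.6% of all tested probe sets were higher and 9.78% changed either way. These 4 belong to Tdgf1, Cfc1 and Foxh1. The comparisons of Ad with Pp and of the fragments with the whole embryo share the 4 fragment arrays.

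Nodal, the ligand, was present in both fragments at levels that overlapped. Its brighter probe set, 1422058_at, read 5243 and 4463 in Ad, 5157 and 5015 in Pp, and 3860 in the whole embryo. Every fragment array was above the whole embryo, and the 2 Pp arrays fell within the range of the Ad pair. Ad minus Pp was -0.14 ± 0.09 (interval -0.35 to 0.08; adjusted p = 0.575), an interval that still allows a modest excess in Pp. The fragments were 1.34-fold above the whole embryo (interval 1.13 to 1.58), which missed the threshold (adjusted p = 0.0524). Over the 9 alternatives with all arrays this adjusted p lay between 0.0526 and 0.0997. It was 0.130 and 0.104 without Ad replicates 1 and 2, and passed without Pp replicate 1 (0.00670) or Pp replicate 2 (0.00488). The fainter Nodal probe set, 1422057_at, read 938 and 788 in Ad, 685 and 900 in Pp, and 629 in the whole embryo. Its Ad and Pp ranges overlapped as well, at a difference of 0.03 ± 0.12 (adjusted p = 0.933) that turned to -0.06 without Ad replicate 1 and to -0.13 without Pp replicate 1. Again the whole embryo was below all fragments (difference 0.37 ± 0.14; adjusted p = 0.157).

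Tdgf1 encodes Cripto, the co-receptor through which Nodal binds its receptors in the epiblast. Its probe set, 1450989_at, read 3383 and 3395 in Ad, 4509 and 3775 in Pp, and 1892 in the whole embryo. Both Pp arrays were above both Ad arrays, and the whole embryo was far below all of them. Pp was 1.26-fold above Ad, with Ad minus Pp at -0.33 ± 0.09 (interval -0.56 to -0.11). This did not pass (adjusted p = 0.331, and 0.313 to 0.443 over the alternatives with all arrays, unless replicates were paired crosswise, which gave 0.204), but it had an unadjusted p of 0.0117. Leaving out Pp replicate 2, the array with high extraembryonic ectoderm markers, the difference was -0.45 (adjusted p = 0.0119, with the spread taken from the Ad pair alone). Without Pp replicate 1 it was -0.22 (adjusted p = 0.185, likewise). The fragments were 1.97-fold above the whole embryo (interval 1.65 to 2.35; adjusted p = 0.00561), the member with the smallest adjusted p in that comparison. That call held under all 9 alternatives that kept every array (adjusted p 0.00587 to 0.0100) and without Ad replicate 1 (0.0451), and it ended without Ad replicate 2 (adjusted p = 0.0501).

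Cfc1 encodes Cryptic, the other EGF-CFC co-receptor, which is known for its part in left-right patterning later in development. Its probe set, 1421524_at, read 2020 and 1994 in Ad, 1988 and 2189 in Pp, and 1442 in the whole embryo. The Ad and Pp arrays overlapped (difference -0.12 ± 0.08, interval -0.30 to 0.07; adjusted p = 0.572). The fragments were 1.43-fold above the whole embryo (interval 1.24 to 1.66; adjusted p = 0.0208). This call ended with the replicate block (adjusted p = 0.0692) and without either Ad array (adjusted p = 0.0964 without replicate 1 and 0.111 without replicate 2).

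Promoter sequences, from RefSeq on build GRCm38.p6, were at hand for 8 of the 10 genes at 9 start sites. They run from 250 bases before to 50 bases after the start site, on the gene's own strand. The ligand and the co-receptors are shown, which lay above the whole embryo in every fragment array, and Acvr1b as a receptor whose fragment and whole-embryo signals overlapped. Acvr2b, not shown, also lay above the whole embryo in every fragment array. Capitals mark CG dinucleotides, the bases that can carry methylation.
Tdgf1 (chr9:110946109-110946408, minus strand): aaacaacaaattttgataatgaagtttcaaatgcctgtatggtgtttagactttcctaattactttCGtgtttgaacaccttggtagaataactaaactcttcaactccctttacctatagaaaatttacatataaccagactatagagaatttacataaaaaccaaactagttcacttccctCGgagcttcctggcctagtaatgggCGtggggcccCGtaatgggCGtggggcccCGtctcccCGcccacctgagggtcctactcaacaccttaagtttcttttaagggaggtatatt
Cfc1 (chr1:34535398-34535697, plus strand): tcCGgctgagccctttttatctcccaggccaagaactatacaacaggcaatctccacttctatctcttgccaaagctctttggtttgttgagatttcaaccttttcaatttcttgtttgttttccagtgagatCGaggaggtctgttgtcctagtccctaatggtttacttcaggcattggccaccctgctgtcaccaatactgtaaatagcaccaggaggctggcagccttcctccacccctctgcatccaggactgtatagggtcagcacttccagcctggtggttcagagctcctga
Nodal (chr10:61417722-61418021, plus strand): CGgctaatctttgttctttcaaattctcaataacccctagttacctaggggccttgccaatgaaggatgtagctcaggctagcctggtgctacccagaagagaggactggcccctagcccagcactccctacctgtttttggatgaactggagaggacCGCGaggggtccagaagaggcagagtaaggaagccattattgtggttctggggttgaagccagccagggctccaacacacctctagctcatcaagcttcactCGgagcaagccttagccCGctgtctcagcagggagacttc
Acvr1b (chr15:101173822-101174121, plus strand): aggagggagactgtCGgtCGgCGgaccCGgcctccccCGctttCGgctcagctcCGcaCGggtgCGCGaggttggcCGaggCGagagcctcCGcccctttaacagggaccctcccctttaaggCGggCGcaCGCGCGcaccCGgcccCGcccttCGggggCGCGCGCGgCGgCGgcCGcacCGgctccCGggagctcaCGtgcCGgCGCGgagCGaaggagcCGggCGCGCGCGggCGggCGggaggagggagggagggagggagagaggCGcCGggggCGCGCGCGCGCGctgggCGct

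The last sequence is dense in CG dinucleotides and the other 3 are at or below the median promoter. The counts in 300 bases were 7 for Tdgf1, 2 for Cfc1 and 5 for Nodal, against a median of 7 over 32851 promoters. Acvr1b held 51, Acvr2a 54, Acvr2b 27 and Pcsk6 52, and the 2 start sites listed for Furin held 51 and 7. For Acvr2b, 84.5% of all promoters held fewer, and a link between CG count and signal was not tested. A loose form of the Foxh1 binding motif, AATNNACA with any base at the 2 positions marked N, was searched on both strands. It was found in 12.2% of all promoters and in 1 of the 9 member promoters. That was Tdgf1, which held AATTTACA at positions -127 and -101 from its start site. Whether Foxh1 binds a site with these middle bases was not tested. The Smad box CAGAC, searched on both strands, was in 49.6% of all promoters and in 6 of the 9, with a copy in Tdgf1 at -113, between the 2 AATTTACA matches. None of these 3 matches overlapped. A match in letters is a description and not a measured binding site.

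Foxh1, the forkhead partner of Smad2, gave different answers from its 3 probe sets. Probe set 1437779_at read 1806 and 2101 in Ad, 1101 and 834 in Pp, and 614 in the whole embryo. The 3 kinds of sample did not overlap, in the order Ad, Pp, whole embryo. Ad was 1.73-fold above Pp (difference 0.79 ± 0.13, interval 0.48 to 1.10), with an unadjusted p of 0.000817 and an adjusted p of 0.137, which did not pass. The adjusted p was 0.0780 to 0.194 over 9 alternatives with all arrays. It was 7.15e-05 without Pp replicate 1 and 0.00289 without Pp replicate 2, where the spread came from the Ad pair, but 0.694 and 0.834 without Ad replicates 1 and 2, where it came from the Pp pair. Pairing the replicates crosswise, which was chosen after seeing the data, brought it to 0.0292. By this probe set the fragments were 0.998 ± 0.14 above the whole embryo on the log2 scale (interval 1.57- to 2.54-fold; adjusted p = 0.0147).

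The second Foxh1 probe set, 1422213_s_at, read 1218 and 1288 in Ad, 1126 and 1101 in Pp, and 798 in the whole embryo. It kept the same order without overlap, at a smaller spacing: Ad minus Pp was 0.07 ± 0.07 (adjusted p = 0.700), and the fragments were 1.44-fold above the whole embryo (interval 1.27 to 1.65; adjusted p = 0.0158). The brightest Foxh1 probe set, 1422212_at, read 1774 and 1644 in Ad, 1501 and 1750 in Pp, and 1764 in the whole embryo. Here all 3 kinds overlapped. The difference between Ad and Pp was -0.00 ± 0.09 (adjusted p = 0.992) and that between the fragments and the whole embryo 0.01 ± 0.10 (adjusted p = 0.972), and the sign of each turned under some scalings. Over the 5 arrays, the profiles of 1422212_at and 1437779_at, each centred on its own mean, differed by a root mean square of 0.56 on the log2 scale. Those of 1422212_at and 1422213_s_at differed by 0.23, and the pairs for Nodal and Acvr2a by 0.13 and 0.09. The platform annotation gives 1437779_at another source sequence than the other Foxh1 probe sets, and which transcripts each one reads was not tested. The 2 calls of Foxh1 against the whole embryo ended without Ad replicate 1 (adjusted p = 0.0575 for 1437779_at and 0.0738 for 1422213_s_at) and without Ad replicate 2 (0.0764 and 0.0929). With the replicate block 1422213_s_at lost its call (0.0578).

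Smad2, the effector that the Nodal receptors phosphorylate, differed little. Its MOE430A probe set, 1420634_a_at, read 1344 and 1324 in Ad, 1178 and 1136 in Pp, and 1283 in the whole embryo. Both Ad arrays were above both Pp arrays, with the whole embryo in between. The difference was 0.10 ± 0.06 (interval -0.06 to 0.26; adjusted p = 0.567). The MOE430B probe set, 1442062_at, showed the same order with other Ad and Pp replicates. It read 373 and 336 in Ad, 286 and 249 in Pp, and 316 in the whole embryo, whose array carries the same replicate number on both array types. Its difference of 0.32 ± 0.16 did not pass (interval -0.05 to 0.69; adjusted p = 0.541). Both Ad arrays lay above both Pp arrays in 32.3% of all tested probe sets on MOE430A, and the share on MOE430B is not given here. Array medians on MOE430B were also higher in Ad (59.7 and 61.0) than in Pp (56.7 and 58.3). The fitted differences from the whole embryo were 0.04 ± 0.07 on MOE430A, which turned to -0.04 without centring, and -0.05 ± 0.17 on MOE430B (adjusted p = 0.746 and 0.921), where 2.21% of all probe sets changed.

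**Figure D2:**
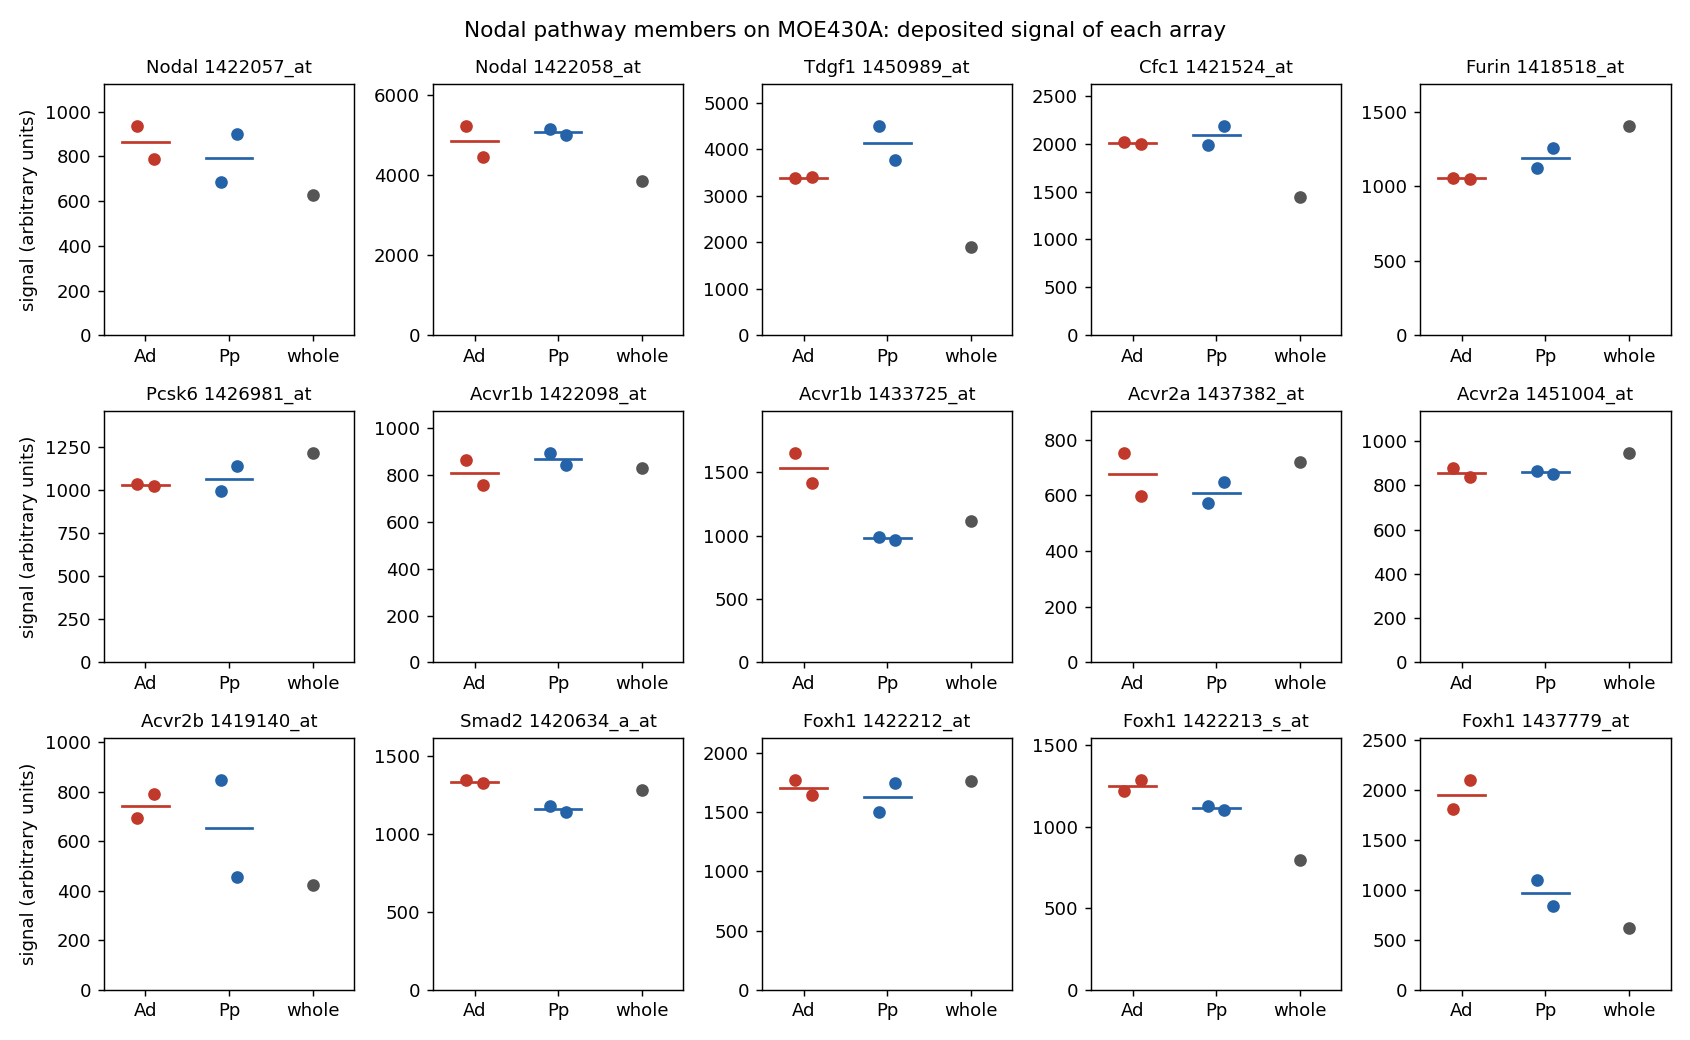
Deposited signal (vertical axis, arbitrary units, linear from 0, scaled per panel) of the 15 member probe sets on MOE430A. Points are arrays and lines the mean of the 2 Ad and the 2 Pp arrays. The whole embryo lies below all 4 fragment arrays for Nodal, Tdgf1, Cfc1 and Foxh1 1437779_at, and Ad and Pp separate most for Foxh1 1437779_at and Acvr1b 1433725_at.

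Acvr1b encodes the type I receptor kinase of activin and Nodal, and its 2 probe sets also disagreed. Probe set 1433725_at read 1652 and 1414 in Ad, 986 and 968 in Pp, and 1117 in the whole embryo. Ad was above both other kinds without overlap, while Pp and the whole embryo were close. Ad was 1.38-fold above Pp (difference 0.47 ± 0.08, interval 0.27 to 0.67), with an unadjusted p of 0.00137 and an adjusted p of 0.164. The adjusted p ranged from 0.0946 to 0.245 over the alternatives with all arrays. It was 0.0107 and 0.0174 without Pp replicates 1 and 2, and 0.873 and 0.691 without Ad replicates 1 and 2. The fainter probe set, 1422098_at, read 862 and 757 in Ad, 895 and 843 in Pp, and 831 in the whole embryo, all overlapping. Its difference had the opposite sign at -0.15 ± 0.08 (interval -0.33 to 0.04; adjusted p = 0.493). The 2 profiles differed by a root mean square of 0.28. Neither passed against the whole embryo (0.19 ± 0.09 and 0.09 ± 0.08; adjusted p = 0.241 and 0.537).

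Of the type II receptors, which bind the ligand and activate the type I kinase, Acvr2a overlapped between Ad and Pp. Probe set 1451004_at read 876 and 835 in Ad, 864 and 851 in Pp, and 946 in the whole embryo. Probe set 1437382_at read 753 and 597 in Ad, 573 and 648 in Pp, and 719 in the whole embryo. The Ad and Pp arrays overlapped in both, with differences of -0.07 ± 0.06 and 0.03 ± 0.10 (adjusted p = 0.687 and 0.912). The whole embryo was above all fragments for 1451004_at and within their range for 1437382_at, and neither passed (fragments minus whole embryo -0.03 ± 0.07 and -0.04 ± 0.11; adjusted p = 0.802 and 0.836). The Ad minus Pp difference of 1437382_at turned negative when Ad replicate 1 or Pp replicate 1 was left out (-0.08 and -0.04). Acvr2b varied more within Pp than between the fragments. Its MOE430A probe set, 1419140_at, read 691 and 792 in Ad, 847 and 455 in Pp, and 425 in the whole embryo. Pp replicate 1 was above every Ad array, and Pp replicate 2 was close to the whole embryo and below the filter signal. The difference of 0.10 ± 0.20 (adjusted p = 0.853) turned to -0.21 without Pp replicate 2 and rose to 0.42 without Pp replicate 1 (adjusted p = 0.0202). On MOE430B the Acvr2b probe sets 1439856_at and 1440525_at lay between 1.54 and 28.4 in every array, below the filter signal of 37.2, and were not tested.

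Both convertases had the whole embryo highest and Ad lowest on average, an order also seen for Acvr2a 1451004_at. Furin, a widely expressed convertase, read 1057 and 1052 in Ad, 1121 and 1257 in Pp, and 1409 in the whole embryo (1418518_at). The 3 kinds of sample did not overlap, and within Pp the higher value was in replicate 2. Ad minus Pp was -0.21 ± 0.08 (interval -0.40 to -0.02; unadjusted p = 0.0369, adjusted p = 0.398), and fragments minus whole embryo was -0.20 ± 0.09 (adjusted p = 0.210). Without Pp replicate 2 the Furin difference between Ad and Pp was -0.13, and without Pp replicate 1 it was -0.28. Pcsk6 encodes a convertase that also cuts the Nodal precursor. Its probe set, 1426981_at, read 1036 and 1024 in Ad, 991 and 1138 in Pp, and 1215 in the whole embryo. Ad and Pp overlapped (difference -0.10 ± 0.08; adjusted p = 0.639), and the whole embryo was above all fragments (-0.10 ± 0.09; adjusted p = 0.538). Among the fragment arrays Furin and Pcsk6 were highest in Pp replicate 2, where some extraembryonic ectoderm markers were high and others were not. Elf5, a trophoblast transcription factor, read 2432 there against 296 to 601 in the other fragments and 2194 in the whole embryo. Bmp4 read 2359 there against 573 to 744 in the other fragments. Tfap2c, at 1241, was below Pp replicate 1 (1295) and Ad replicate 1 (1256), and Ascl2 was level with Ad replicate 1 (both 1062). The part of extraembryonic ectoderm RNA in the Furin and Pcsk6 values was not tested.

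**Figure D3:**
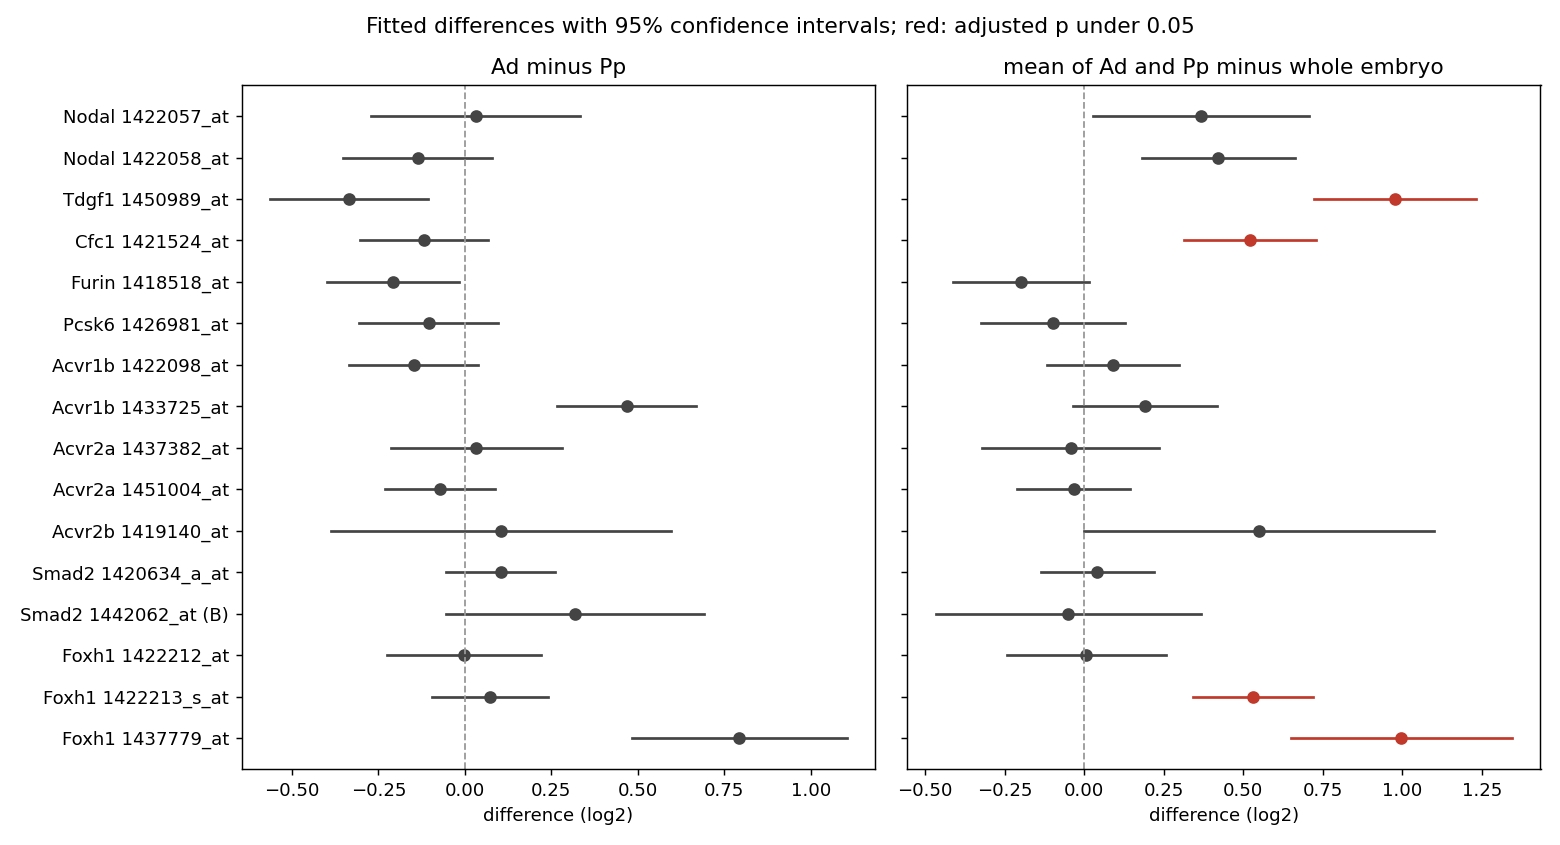
Fitted differences (horizontal axes, log2) of the 16 tested member probe sets, Ad minus Pp on the left and fragments minus whole embryo on the right. Points are estimates, bars 95% confidence intervals, (B) marks MOE430B, and red marks an adjusted p under 0.05: none on the left, and Tdgf1, Cfc1 and 2 Foxh1 probe sets on the right.

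On the deposited scale the whole embryo lay below all 4 fragment arrays in 7 of the 15 member probe sets on MOE430A, both of Nodal, those of Tdgf1, Cfc1 and Acvr2b and 2 of Foxh1, where 22% of all tested probe sets did. It lay above all fragments in 3, those of Furin, Pcsk6 and one of Acvr2a, where 36.8% did. The member median of fragments minus whole embryo was 0.19, beside 0.05 for all tested probe sets. Scaling moved the background: higher and lower calls were 624 and 703 as reported, 338 and 966 without centring and 353 and 797 under cyclic loess, while the members called numbered 4 under each. Epiblast markers were lower in the whole embryo too. The 5 measured of 7 summed to 28383 to 30941 over the fragment arrays but to 22687 for the whole embryo, and 3 of the 5 rose in the fragments, with a median of 0.51. Among them Pou5f1, the pluripotency factor, was 1.73-fold higher (adjusted p = 0.0221). Of the general visceral endoderm markers, 3 of 13 rose in the fragments. Other lists were higher in the whole embryo. Of 9 parietal endoderm markers 5 were measured, and 4 of the 5 fell in the fragments. The 5 summed to 14318 and 14014 in Ad, 9706 and 10173 in Pp, and 19844 in the whole embryo. All 5 were also positive in Ad minus Pp (median 0.45), where 0 passed. In the fragments 2 of 2 ectoplacental markers fell too (2590 to 3454 against 7845), as did 2 of 4 decidua markers and 1 of 9 extraembryonic ectoderm markers. Each of these marker counts uses only the brightest probe set of a gene. All these lists moved in the comparison that gave the calls of Tdgf1, Cfc1 and Foxh1, and their part in those values and in that of Nodal was not tested.

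The genes with profiles most like those of Nodal and Tdgf1 were sought over the 5 MOE430A arrays, with each profile centred on its own mean. Nearest to Nodal 1422058_at among 12432 probe sets of other genes were Polr2f, an RNA polymerase subunit, Apob, an apolipoprotein of visceral endoderm, and Ap1g1, an adaptor subunit of vesicle transport, at root mean square differences of 0.03, 0.03 and 0.05 (log2). The median over all was 0.19, and the spread of Nodal's own profile, which is its distance from a flat line, was 0.19 as well. Nearest to Tdgf1 among 12433 were Ubxn8, Zfp354a and the ubiquitin-conjugating enzyme gene Ube2d3, at 0.11, 0.12 and 0.13 against a median of 0.41 and a spread of 0.43. The nearest other member was Cfc1 for both, at 0.09 from Nodal (rank 181) and 0.24 from Tdgf1 (rank 113).

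Among other genes of the pathway, those that passed the threshold between Ad and Pp were all on the list of anterior visceral endoderm markers too, the tissue by which Ad was cut. A list of 44 further ligands, receptors, antagonists, convertases, Smad regulators and targets had 34 genes on MOE430A and 26 above the filter. Over all tested probe sets 0.169% passed in either direction. Of the 26 genes, 3 rose in Ad by their brightest probe sets and 0 fell. These were the antagonist Lefty1 (6489 and 4658 in Ad, 912 and 987 in Pp; 4.58-fold, adjusted p = 0.0136) and the target transcription factors Lhx1 (2338 and 2266 against 757 and 675; 2.52-fold, adjusted p = 0.00896) and Foxa2 (2304 and 1945 against 838 and 751; 2.17-fold, adjusted p = 0.0237). Cer1, the antagonist after which the reporter is named, rose 7.01-fold by a probe set that these counts did not use (adjusted p = 0.000191). It read 3681 and 3670 in Ad, and 283 and 288 in Pp. The Cer1 probe set that they used read 1532 and 1413 in Ad, and 899 and 861 in Pp. It was 1.45-fold higher in Ad, which did not pass (adjusted p = 0.0864). The Cer1 probe set that passed was thus the brighter one in Ad and the fainter one in Pp. The median was 0.99 over the 6 measured targets, of which 4 (Lhx1, Foxa2, Otx2 and Hhex) are on that marker list, while the other two, Mixl1 and Eomes, were at -0.66 and -0.12 and did not pass (adjusted p = 0.0909 and 0.647). The other medians were -0.08 for the 5 antagonists, 0.00050 for the 10 Smads and Smad regulators, 0.01 for the 3 other convertases and 0.08 for the 2 other ligands. On MOE430B 14 of the 44 were tested and 0 passed, where 0.111% of all tested probe sets did. The antagonists Fst and Dact2 came close there, in opposite directions (both adjusted p = 0.0562). Fst read 88 and 116 in Ad, and 464 and 328 in Pp. Dact2 read 579 and 378 in Ad, and 102 and 117 in Pp.

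In the comparison with the whole embryo, 7 of the 26 rose in the fragments and 0 fell. Over all tested probe sets 4.6% were higher and 9.78% changed either way. Gdf3, a ligand that also acts through Nodal's receptors, was higher by 0.59 ± 0.08 on the log2 scale (2009 and 2014 in Ad, 1936 and 1748 in Pp, 1282 in the whole embryo; adjusted p = 0.0140). The repressor gene Tgif1 was 1.70-fold higher (adjusted p = 0.0189), and Trim33, which encodes a Smad-binding protein, 1.48-fold (adjusted p = 0.0343). The others, all 4 on the anterior marker list, were Otx2 (2.17-fold), Lefty1 (1.68-fold), Lhx1 (1.62-fold) and Foxa2 (1.61-fold), with adjusted p of 0.0354, 0.0455, 0.00767 and 0.0174. Cer1, also on that list, rose 1.54-fold by the probe set that the counts did not use (adjusted p = 0.00753). The one that they used did not pass (adjusted p = 0.198). For Lefty1, Lhx1 and the Cer1 probe set that passed, both Pp arrays lay below the whole embryo, and only the Ad arrays were above it. On MOE430B 2 of 14 fell, where 2.21% of all tested probe sets changed either way. The activin antagonist Fst was 8.02-fold lower in the fragments (88 to 464 against 1675, adjusted p = 0.00296). The convertase gene Pcsk5 was 7.14-fold lower (231 to 506 against 2569, adjusted p = 0.00313). Pcsk5 was thus the convertase with a called difference, while the whole embryo was 1.15-fold above the fragments for Furin and 1.07-fold for Pcsk6, neither of which passed. On the same arrays the 2 measured decidua markers summed to 301 to 355 over the fragments and 2487 in the whole embryo, with Hand2 15.8-fold higher there (adjusted p = 0.00107), and the part of such RNA in the Fst and Pcsk5 values was not tested. On MOE430A another Pcsk5 probe set read 1001 to 1135 over the fragment arrays, with the whole embryo at 1092 and a fitted difference of 0.03.

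**Figure D4:**
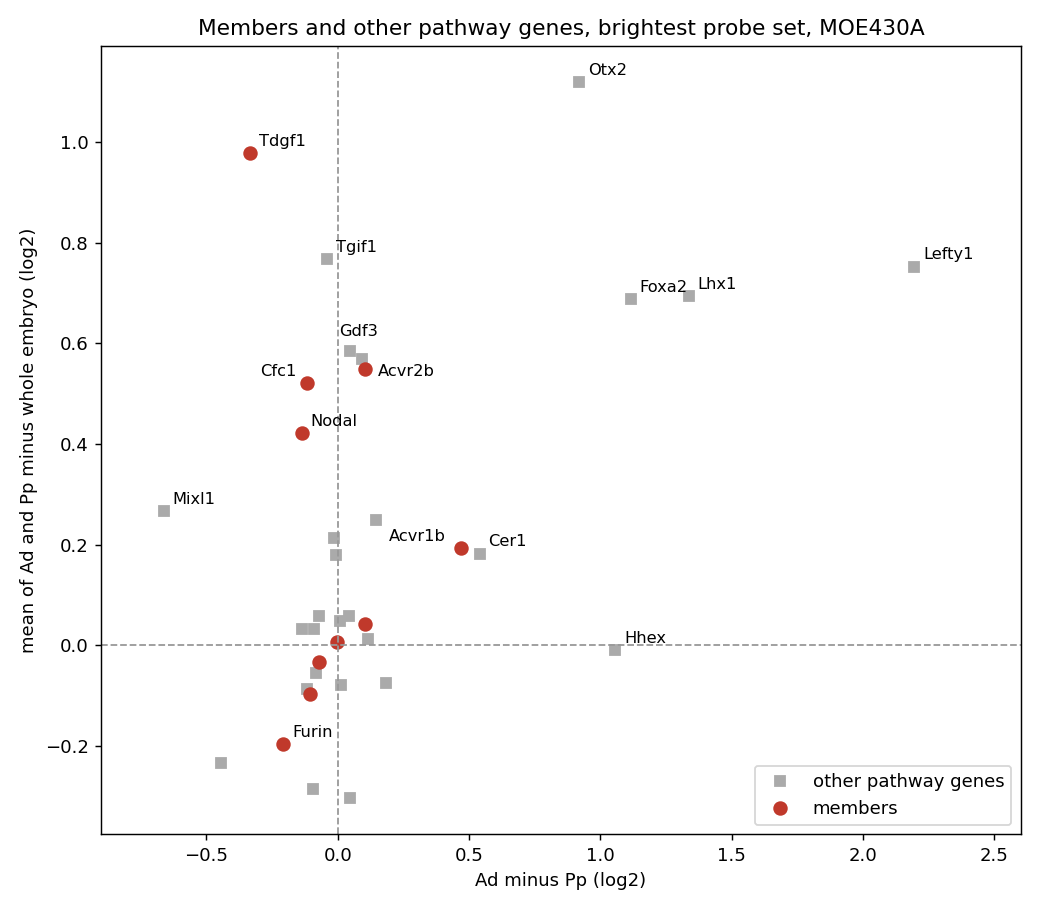
Ad minus Pp (horizontal axis, log2) against fragments minus whole embryo (vertical axis, log2) for the brightest probe set of each gene on MOE430A; red circles are the 10 members and grey squares the other pathway genes. The axes share the fragment arrays. By these probe sets the members lie within 0.47 of 0 on the horizontal axis, but Foxh1 1437779_at, not drawn, is at 0.79; Lefty1 reaches 2.20, Lhx1 1.34 and Foxa2 1.12.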

How the data were processed

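The authors deposited 1 linear intensity per probe set and array. The submitters' processing notes name MAS5; for its version and scaling target, nothing is given in the sources used here. Per array type, 64 control probe sets were left out, a pseudocount at the 20th percentile was added, log2 was taken, probe sets with a mean above the 40th percentile were kept (13575 and 13506), and arrays were centred on their medians. A model of Ad, Pp and whole embryo was fitted with limma 3.58.1 in R 4.3.3 (2 residual degrees of freedom), with the lone whole-embryo array assumed to vary like the fragments. All p-values are two-sided, and unadjusted ones are named as such. Adjusted p-values are Benjamini-Hochberg values over all kept probe sets of an array type, with a threshold of 0.05. The fit of Ad minus Pp was tested on simulated log2 values. The pseudocount, filter, centring and comparison with the whole embryo were not tested in that way. Genes were named from the platform annotation. All member probe sets were described; of the pathway lists, genes past the threshold were named, plus the 3 nearest profiles. The members and lists were chosen with earlier results of these data known. Alternatives covered scaling, pseudocount, filter, variance trend, replicate block and leaving out each fragment array.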

Additional observations from a re-analysis of the deposited data

How the results depend on the processing

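With 2 arrays per fragment, calls depended most on which array was left out. Leaving out Ad or Pp arrays in turn gave 1 to 805 calls between Ad and Pp on MOE430A (23 with all arrays) with 0 to 3 member calls, and 0 to 131 on MOE430B (15) with 0 member calls. Against the whole embryo it gave 274 to 3491 calls on MOE430A (1327) with 0 to 7 member calls (4), and 101 to 1183 on MOE430B (299). Between Ad and Pp, MOE430A had 46 calls with no centring. MOE430B had 26 with the filter at the 60th percentile, 30 with an intensity trend, 30 with the pseudocount at the 40th percentile and 2 with no filter. Against the whole embryo MOE430B had 196 with no filter. The replicate numbers are only shared labels: the deviations of same-numbered arrays correlated at -0.24 on MOE430A and -0.04 on MOE430B across probe sets. With the replicate block there were 24 and 29 calls between Ad and Pp, none of a member, and 605 on MOE430A against the whole embryo, 2 of them members. With the replicates of MOE430A paired crosswise, chosen after seeing the data, there were 47 calls, 1 of a member. No paired analysis was possible for the whole embryo on MOE430B because its array shares no number with the fragments there.

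Changes of sign were found in member differences near 0, and for each the cause was not tested. Between Ad and Pp, Foxh1 1422212_at turned to 0.065 with no centring, 0.0050 under cyclic loess and 0.026 with no filter, and spanned -0.11 to 0.10 when arrays were left out. Against the whole embryo it was -0.073 with no centring, -0.0039 under quantile normalization, -0.054 under cyclic loess, -0.0077 with no filter, -0.016 with the filter at the 60th percentile, -0.025 with the replicate block, and -0.043 to 0.060 when arrays were left out. Smad2 1420634_a_at turned against the whole embryo to -0.038 with no centring and -0.0045 under cyclic loess, and on MOE430B Smad2 1442062_at spanned -0.11 to 0.013 when arrays were left out. Leaving out arrays also turned Nodal 1422057_at (-0.13 to 0.19), Acvr2a 1437382_at (-0.081 to 0.15) and Acvr2b 1419140_at (-0.21 to 0.42) between Ad and Pp, and Acvr2a 1437382_at (-0.098 to 0.015) against the whole embryo.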
